A study of Homo sapiens with 6 samples.

Results

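The comparison described here set CAL27 cells that express the wild-type form of MB21D2 against CAL27 cells that hold an empty vector. CAL27 is an established carcinoma line from the mouth, labelled adenosquamous. Per the labels, all lines of the study were stable lines made with GFP-fused proteins, expression of the wild-type form was constitutive, and the medium was DMEM with serum, antibiotics and the selection drug G418. The labels do not give the promoter, whether a line is 1 clone or a pool, or whether the empty vector carried GFP. Each line had 2 RNA sequencing libraries, A and B, so 4 of the 6 libraries of the series were used. The other 2, from a line with the Q311E form, did not enter the fit. The labels do not say that A and B were separate cultures, so the p-values measure the spread between these libraries only, which may be technical. Of the 30178 gene IDs in the deposited table, 11240 averaged 1 FPKM or more across these 4 libraries and were tested. FPKM is the read number of a gene scaled to its exon length and to the library size.

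MB21D2 belongs to the Mab-21 family of proteins, which share a nucleotidyltransferase fold with cGAS, the enzyme that makes the cyclic dinucleotide cGAMP when it meets DNA in the cytosol. CAL27 cells come from squamous epithelium. Basal cells of such epithelium build their cytoskeleton from the keratin pair KRT5 and KRT14 under the transcription factor p63, and stressed or inflamed epithelium adds KRT6, KRT16, KRT17, S100 proteins, interleukin-1 and antimicrobial proteins. Epithelial cells also make cholesterol and fatty acids under the SREBP transcription factors, which sterols hold in the endoplasmic reticulum through INSIG proteins.

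The library totals behind the FPKM values ranged from 20645410 to 24147306 reads. Over the tested genes, the log2 difference between A and B had an SD of 0.192 in the vector line and 0.144 in the wild-type line. The correlation of log2 levels across genes was 0.993 between the vector libraries, 0.996 between the wild-type libraries and 0.956 to 0.965 between lines. The 2 libraries of a line differed by more than counting noise, with a chi-square per gene of 16.5 for the vector and 2.94 for the wild type. They were therefore not treated as 1 library deposited in duplicate, although such a spread does not show that they came from separate cultures. The summed level of the 13 mitochondrially encoded mRNAs was 12600 FPKM in vector A, 24600 in vector B, 21700 in wild type A and 20200 in wild type B. Of 10 epithelial identity markers 9 were above 1 FPKM, and their summed level was 1950 to 2000 FPKM in the vector line and 1450 to 1490 in the wild-type line. Without KRT14 the sum was 1240 to 1250 FPKM in the vector line and 1450 to 1480 in the wild-type line, so it was higher there. Of the 9 markers tested, KRT14 included, 4 were called higher and 4 lower. KRT19 was the marker below 1 FPKM in every library. Markers of other cell types were low: 7 fibroblast markers summed to 2.49 to 3.59 FPKM with DCN at 0 in every library. Of 5 endothelial markers CDH5 alone was above 1 FPKM and made up most of a sum of 15.5 to 21.5. The leukocyte markers found in the table, 4 of 6, summed to 2.03 to 3.52 FPKM, mostly CD14, with PTPRC near 0.

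The MB21D2 transcript was far more abundant in the wild-type line. MB21D2 (ENSG00000180611, GRCh38 chromosome 3, 192796815 to 192918161, minus strand) stood at 8.31 and 7.15 FPKM in vector A and B and at 104 and 106 in wild type A and B. Both wild-type libraries lay above both vector libraries, a 13.6-fold difference in mean FPKM (log2 fold change 3.61 ± 0.073, adjusted p = 2.08e-05). FPKM does not separate the introduced transcript from the cell's own, which the vector libraries show at a low level. 

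Across the transcriptome, 5210 of 11240 genes (46.4%) were called at an adjusted p under 0.05, 1998 higher in the wild-type line (17.8%) and 3212 lower (28.6%). Most of these differences were small. Genes called with a change of at least 2-fold numbered 405 (3.6%), 102 higher (0.907%) and 303 lower (2.7%), and changes of at least 4-fold numbered 14 higher and 31 lower. In all 5210 called genes the 2 lines did not overlap, which also held for 77.1% of the genes tested. The median log2 fold change of all tested genes was -0.05. The excess of lower calls depended on the scaling: higher calls were 38.3% of all calls as deposited, 44% after TPM scaling, 49.3% with the trend on exon length removed, 52.2% after median scaling and 53.3% after quantile normalization. The number of calls also depended on the design, with 1442 called when the Q311E libraries entered the same fit, and 2755 and 2611 without wild type A or B. Genes past 2-fold kept their call more often, with 301 of the 405 still called when the Q311E libraries entered the same fit.

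**Figure D1:**
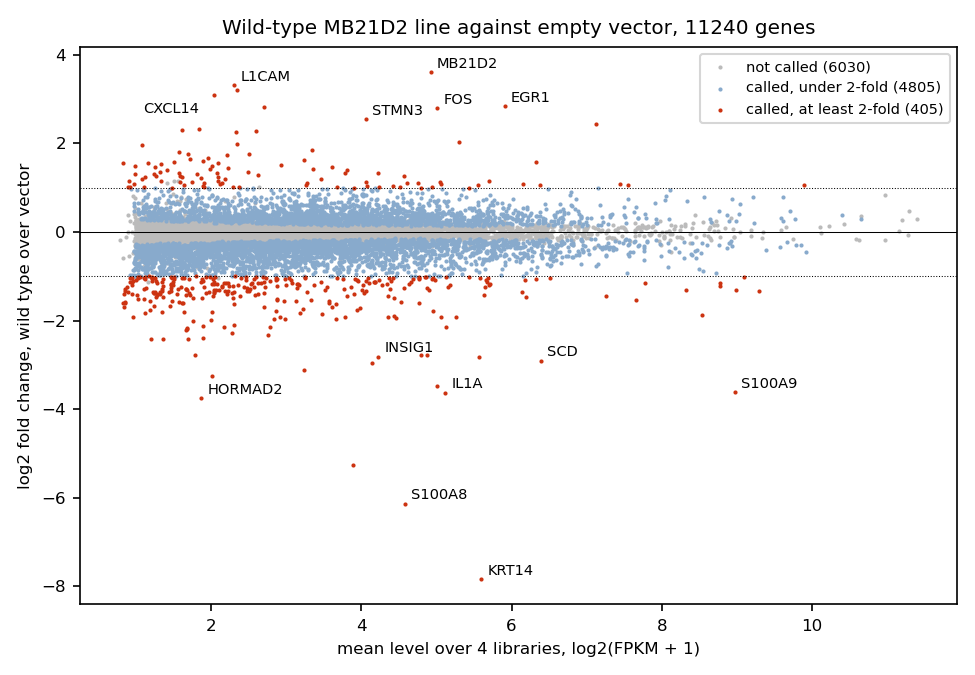
Log2 fold change of wild type over vector on the vertical axis against the mean level over the 4 libraries as log2(FPKM + 1), with 1 point for each of the 11240 tested genes. Red points are the 405 genes called with at least 2-fold, pale blue points are called genes under 2-fold, and dotted lines mark 2-fold. KRT14 lies lowest, at -7.83, and MB21D2 highest, at 3.61.

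Genes were then followed in lists by their known roles. The plot of fold changes by list shows that lists of basal keratins, antimicrobial proteins, HLA class II and lipid enzymes lay on the lower side, while immediate early genes lay on the higher side, and many other lists were mixed. Counts of called members are read against the share of all tested genes, 17.8% higher and 28.6% lower. That share was 7.79% and 16.7% without wild type A, 7.58% and 15.6% without B, and 3.65% and 9.18% in a fit that also held the Q311E libraries, termed the 3-group fit. Fewer members were called in the 3-group fit: 11 of 20 cholesterol enzymes, 4 of 7 basal and stress keratins, 6 of 13 S100 genes and 4 of 8 antimicrobial genes fell, and 6 of 19 immediate early genes rose. In the same fit 8 endoplasmic reticulum chaperones and 1 hypoxia gene fell, and 2 YAP targets rose. The lists are described in turn, from MB21D2's own family to epithelial identity, defence, lipids, stress, signalling and matrix.

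**Figure D2:**
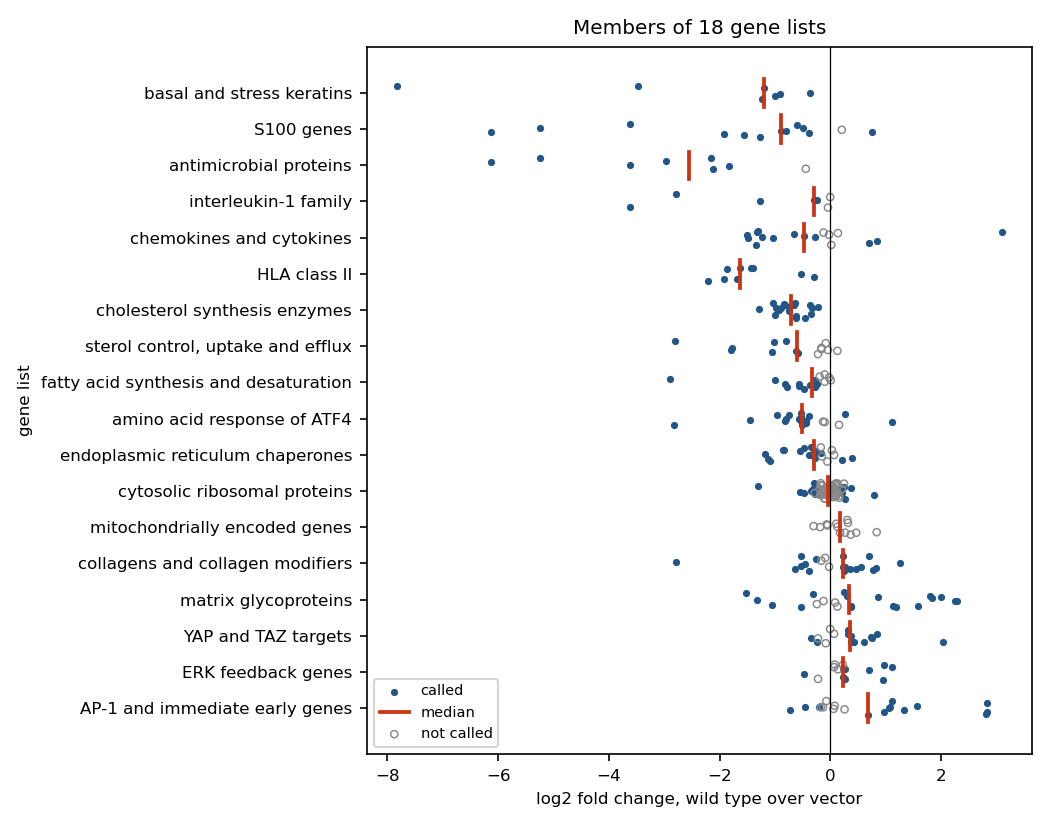
Log2 fold change of every tested member of 18 gene lists, with filled points for called genes, open points for genes not called and a red bar at the median of each list. All cholesterol enzymes and basal keratins lie left of 0, and most immediate early genes lie right of it. The list medians run from -2.55 for antimicrobial proteins to 0.68 for immediate early genes.

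The list of Mab-21 family genes was chosen after values were seen. Of its 8 tested genes 4 were called higher and 1 lower (against 17.8% and 28.6% of all genes). MB21D2 itself, the introduced gene, is among the 4 higher calls. MAB21L4, a family member of squamous epithelium, stood at 1.09 and 0.891 FPKM in vector A and B and at 3.96 and 3.52 in wild type A and B and was 3.77-fold higher (log2 fold change 1.25 ± 0.095, adjusted p = 0.000651). Its adjusted p was 0.067 in the 3-group fit, where 2 of the list rose, MB21D2 among them. CGAS, which encodes cGAS itself, stood at 17.9 and 16.2 FPKM in vector A and B and at 32.2 and 27.4 in wild type A and B (log2 fold change 0.77 ± 0.091, adjusted p = 0.00218). Its neighbours on chromosome 6 had a median log2 fold change of 0.35, and the part of this shift in the CGAS value was not tested. TMEM102 was 0.91 ± 0.11 lower on the log2 scale.

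KRT14 showed the largest change of any gene. It stood at 762 and 697 FPKM in vector A and B and at 2.08 and 2.35 in wild type A and B, so the keratin transcript with the highest level in the vector line came close to absent in both wild-type libraries (329-fold lower, log2 fold change -7.83 ± 0.068, adjusted p = 1.32e-06). In bulk libraries fewer cells with a transcript and less of it per cell cannot be told apart. Behind these levels were 41495 and 32438 reads in the vector libraries and 107 and 113 in the wild-type libraries. KRT14, KRT6A, KRT16 and KRT17 have close copies or pseudogenes, so their exact levels are uncertain. All 7 tested basal and stress keratins fell, 5 of them at least 2-fold, with a median log2 fold change of -1.19. KRT5, the partner of KRT14, moved little by comparison, from 522 and 537 FPKM in the vector libraries to 405 and 417 in the wild-type libraries (log2 fold change -0.36 ± 0.055, adjusted p = 0.00444), and its call was lost without wild type A (adjusted p = 0.0744) or B (adjusted p = 0.0573). KRT6A, a keratin of wounded epithelium, stood at 109 and 104 FPKM in vector A and B and at 7.9 and 9.49 in wild type A and B (log2 fold change -3.48 ± 0.086, adjusted p = 4.51e-05). KRT17 fell by 1.19 and KRT15 by 1.23 on the log2 scale. KRT5 and KRT15 lost their calls in the 3-group fit (adjusted p = 0.125 and 0.22).

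The simple epithelial keratin pair KRT8 and KRT18 was higher in the wild-type line. KRT8 stood at 254 and 252 FPKM in vector A and B and at 404 and 415 in wild type A and B (log2 fold change 0.69 ± 0.05, adjusted p = 0.000581), and its partner KRT18 at 192 and 206 FPKM in vector A and B and at 348 and 356 in wild type A and B (log2 fold change 0.82 ± 0.057, adjusted p = 0.000541). In both, the wild-type libraries lay above the vector libraries by more than the spread within either line. Of the 6 tested simple and suprabasal keratins 3 rose and 3 fell: KRT80 rose as well, while KRT7, the suprabasal KRT10 and the hair keratin KRT86 fell. KRT13 and KRT19 were under 1 FPKM in every library. In the 3-group fit the calls of KRT8 (adjusted p = 0.172), KRT18 (adjusted p = 0.0547) and KRT80 (adjusted p = 0.205) were lost, and 0 of the 6 were called higher.

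TP63, which encodes p63, stood at 30.2 and 29.8 FPKM in vector A and B and at 14.8 and 14.5 in wild type A and B, close to a 2-fold difference (log2 fold change -0.99 ± 0.047, adjusted p = 0.000241). Of 15 tested squamous transcription factors 5 rose and 3 fell, with 3 rises without wild type A and 2 without B. In the main fit the rises lie above the 17.8% of all genes and the falls under the 28.6%. In the 3-group fit 2 rose and 2 fell, and without chromosome 9 genes 3 of 13 rose and 3 fell. FOXE1 rose by 1.31 and KLF4 by 0.59, and both lie on chromosome 9, where neighbouring genes had medians of 0.41 and 0.45. EHF fell by 0.58, while KLF5 was at 16.2 and 16.2 FPKM in vector A and B and at 14.9 and 14.7 in wild type A and B and was not called. Desmosome genes were split, 5 lower and 3 higher of 10, and 2 and 1 in the 3-group fit. DSC3 and DSG3, adhesive cadherins of basal cells, fell by 1.06 and 0.90, and DSP, the plaque protein that ties keratins to the junction, stood at 24.3 and 22 FPKM in vector A and B and at 43.5 and 49.2 in wild type A and B (log2 fold change 0.97 ± 0.08, adjusted p = 0.000748). Of 16 tight junction genes 8 fell and 1, TJP1, rose, against 28.6% lower among all genes. Without wild type A or B 5 fell, and in the 3-group fit 2 fell and 0 rose, with TJP1 (adjusted p = 0.168) and CLDN1 (adjusted p = 0.201) no longer called. CLDN1, the most abundant claudin measured, stood at 240.3 and 269 FPKM in vector A and B and at 136 and 131 in wild type A and B (log2 fold change -0.92 ± 0.068, adjusted p = 0.000613), and CLDN7 fell by 1.07.

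Late differentiation genes were mostly near 0 in both lines, and 3 of 22 were tested. CSTA, a protease inhibitor of the cornified envelope, fell by 1.92, and the envelope plakins PPL and EVPL rose by 1.01 and 0.45. All 3 calls were lost in the 3-group fit (adjusted p = 0.0778, 0.0843 and 0.131). The cadherin CDH1 was at 61.6 and 58.4 FPKM in vector A and B and at 66 and 66.6 in wild type A and B and was not called. CDH2, FN1 and TWIST1, genes raised in mesenchymal cells, rose by 0.74, 0.86 and 0.79, while VIM and ZEB1 stayed under 0.1 FPKM in both lines. CDH2 and TWIST1 also lost their calls there (adjusted p = 0.284 and 0.0594).

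**Figure D3:**
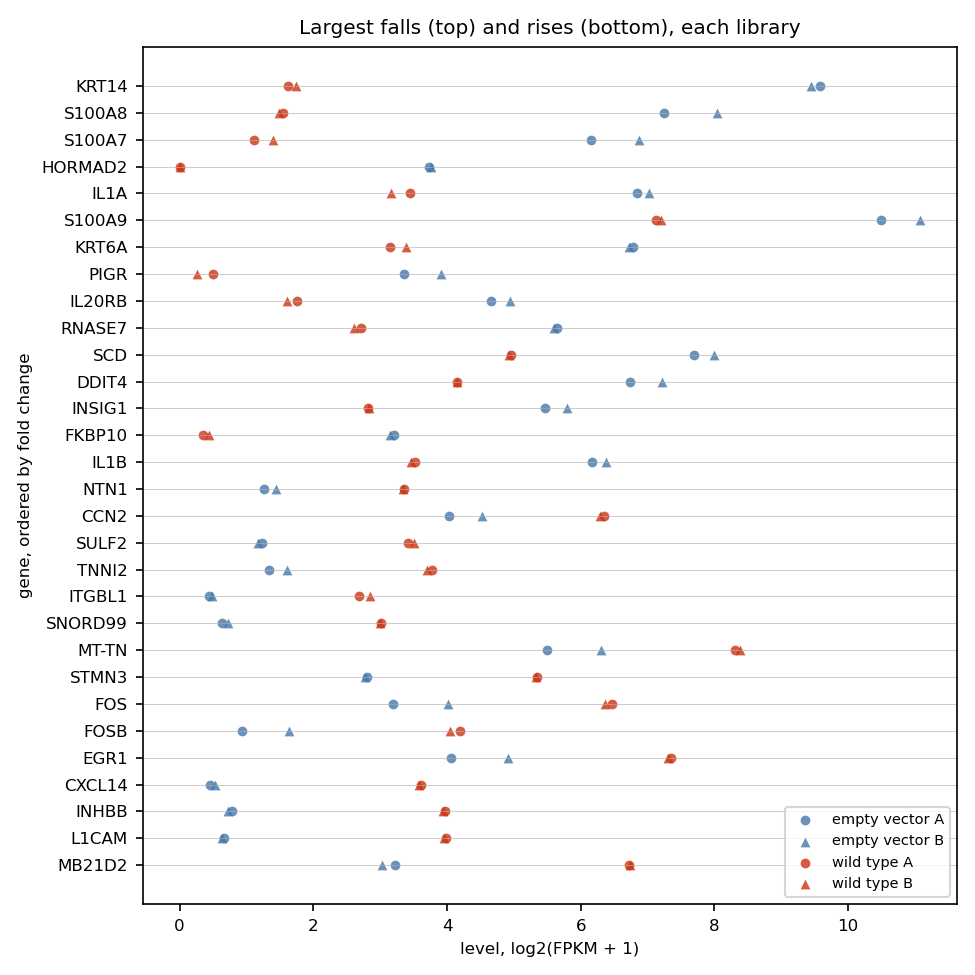
Level of each gene in each of the 4 libraries as log2(FPKM + 1), for the 15 genes with the largest falls (top) and the 15 with the largest rises (bottom) among called genes. Blue symbols are vector libraries and red symbols wild-type libraries, with circles for A and triangles for B. In every gene shown the red symbols lie on 1 side of both blue symbols, and HORMAD2 lies at 0 in both wild-type libraries.

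S100 genes encode small calcium-binding proteins and most of them sit together on chromosome 1. Of 13 tested S100 genes 11 fell, 6 of them at least 2-fold, and S100A10 alone rose (log2 fold change 0.76 ± 0.06, adjusted p = 0.000708). S100A9, which pairs with S100A8 to form calprotectin, was the most abundant member and stood at 1434 and 2154 FPKM in vector A and B and at 139 and 146 in wild type A and B. It was 12.6-fold lower than in the vector line (log2 fold change -3.61 ± 0.18, adjusted p = 0.000276), although vector A lay well below vector B. The call was lost in the 3-group fit (adjusted p = 0.0715), as was that of S100A2 (adjusted p = 0.0636). S100A8 stood at 151 and 262 FPKM in vector A and B and at 1.92 and 1.79 in wild type A and B (log2 fold change -6.13 ± 0.24, adjusted p = 0.000165), and S100A7, or psoriasin, at 70.2 and 116 FPKM in vector A and B and at 1.17 and 1.64 in wild type A and B (log2 fold change -5.25 ± 0.24, adjusted p = 0.000215). The 2 lines did not come near each other in either gene. S100A7 has close copies, so its reads are uncertain. S100A2, a target of p63 in epithelium, was less changed and stood at 478 and 534 FPKM in vector A and B and at 269 and 279.7 in wild type A and B (log2 fold change -0.88 ± 0.072, adjusted p = 0.000748). The neighbours of the S100 genes on chromosome 1 had medians of -0.22 to -0.42. These neighbours include other S100 genes, so falls of the family are part of those medians. The part of a regional shift in the S100 values was not tested.

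Other antimicrobial genes were lower too. Of 8 tested, which include the S100 genes S100A7, S100A8 and S100A9, 7 fell and all 7 by at least 2-fold (against 2.7% of all genes). RNASE7, a ribonuclease secreted onto skin and mucosa, stood at 49 and 47.5 FPKM in vector A and B and at 5.57 and 5.12 in wild type A and B (log2 fold change -2.96 ± 0.057, adjusted p = 2.08e-05). SLPI, an inhibitor of leukocyte elastase, stood at 63.1 and 83.5 FPKM in vector A and B and at 15.3 and 16 in wild type A and B (log2 fold change -2.15 ± 0.13, adjusted p = 0.000387), and the peptidoglycan-binding protein PGLYRP4 fell by 2.11. LCN2, which binds bacterial siderophores, was at 266 and 390.3 FPKM in vector A and B and at 232 and 242 in wild type A and B and was not called. LCN2 lies on chromosome 9, where the median log2 fold change was 0.20, and the part of this shift in its value was not tested. PIGR, the receptor that carries IgA across epithelium, was at 9.29 and 14.1 FPKM in vector A and B and at 0.421 and 0.204 in wild type A and B (log2 fold change -3.25 ± 0.19, adjusted p = 0.000387). In the 3-group fit the calls of PIGR (adjusted p = 0.0813), SLPI (adjusted p = 0.0813), PGLYRP4 (adjusted p = 0.08) and S100A9 were lost. Clade B serpins, which inhibit proteases inside cells, fell in 5 of 6, among them SERPINB9, SERPINB1 and SERPINB6 by 1.91, 1.44 and 1.29. Those 3 lie at the start of chromosome 6, where neighbouring genes had medians of -0.80 to -0.89. The neighbours of each include the other serpins there.

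IL1A, IL1B and the receptor antagonist IL1RN were at least 2-fold lower in the wild-type line. IL1A, the form kept in epithelial cells and released on damage, stood at 114 and 128 FPKM in vector A and B and at 9.85 and 7.99 in wild type A and B (log2 fold change -3.62 ± 0.11, adjusted p = 7.62e-05). IL1B, the secreted form, stood at 70.7 and 81.8 FPKM in vector A and B and at 10.4 and 10.0 in wild type A and B (log2 fold change -2.78 ± 0.078, adjusted p = 7.3e-05), and the receptor antagonist IL1RN at 2.04 and 2.69 FPKM in vector A and B and at 0.337 and 0.432 in wild type A and B (log2 fold change -1.27 ± 0.12, adjusted p = 0.00117). In each of these the higher wild-type library was far below the lower vector library. Of 7 tested family genes 5 fell and 0 rose, and 3 fell without vector A, wild type A or wild type B and in the 3-group fit. IL18, at 4.25 and 4.31 FPKM in the vector libraries and 4.19 and 4.09 in the wild-type libraries, was not called. IL20RB, a receptor chain for the interleukin-20 group of cytokines, stood at 24.2 and 29.8 FPKM in vector A and B and at 2.37 and 2.05 in wild type A and B (log2 fold change -3.12 ± 0.11, adjusted p = 0.000143).

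Chemokines and cytokines fell in 10 of 17, 7 of them at least 2-fold, and rose in 3. CCL2, a monocyte attractant, was the most abundant of them and stood at 912 and 1086 FPKM in vector A and B and at 398 and 397 in wild type A and B (log2 fold change -1.32 ± 0.093, adjusted p = 0.000541). CXCL1 and CXCL8, which attract neutrophils, fell by 1.30 and 1.04. CCL20 fell by 1.48, and CXCL10 and CXCL11, induced by interferon, by 1.34 and 1.51. CXCL14, a chemokine of resting epithelium, went against this pattern and stood at 0.377 and 0.442 FPKM in vector A and B and at 11.2 and 11 in wild type A and B, 27.1-fold higher (log2 fold change 3.10 ± 0.071, adjusted p = 3.2e-05). CX3CL1 and LIF also rose, by 0.84 and 0.71. In the 3-group fit 6 fell and 1 rose, and CCL20 (adjusted p = 0.302), CXCL1 (adjusted p = 0.0646), CX3CL1 (adjusted p = 0.0695) and LIF (adjusted p = 0.0863) lost their calls. TNF and CSF1 were expressed and not called, with log2 fold changes of 0.14 ± 0.086 and -0.12 ± 0.05.

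Of 16 NF-kB subunit and feedback genes 3 rose and 5 fell, near the 17.8% and 28.6% of all genes, and 1 rose and 3 fell without wild type A, 2 and 2 without B. RELA was at 31.2 and 31.1 FPKM in vector A and B and at 32.9 and 33.1 in wild type A and B and was not called, and TNIP1, an inhibitor of NF-kB signalling, fell by 0.54. Complement genes fell in 5 of 9 and rose in 2, against 28.6% and 17.8% of all genes. Without wild type B 3 fell and 0 rose, and in the 3-group fit 0 were called in either direction. CFB, a factor of the alternative pathway, was the largest fall among them (log2 fold change -1.35 ± 0.12, adjusted p = 0.000891), and had an adjusted p of 0.0658 in the 3-group fit.

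HLA class II genes, a list chosen after values were seen, were lower in all 9 tested, 7 of them by at least 2-fold, with a median log2 fold change of -1.63. HLA-DRA, the alpha chain of the DR molecule, stood at 69.5 and 77.9 FPKM in vector A and B and at 18.1 and 19.4 in wild type A and B (log2 fold change -1.92 ± 0.071, adjusted p = 0.000152). HLA-DQB1 fell by 2.21 and HLA-DMA, which loads peptides, by 1.63. Levels of single HLA genes are uncertain because they resemble each other. The genes of this family on chromosome 6 had neighbours with a median of about -0.36, and those neighbours include other class II genes. CD74, the invariant chain, lies on chromosome 5 and fell less, by 0.53 (adjusted p = 0.194 in the 3-group fit).

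Genes that sense DNA in the cytosol fell in 7 of 11, and in 4 in the 3-group fit, with CGAS as the only rise. STING1, the receptor for cGAMP, stood at 3.32 and 4.58 FPKM in vector A and B and at 0.457 and 0.625 in wild type A and B, 7.3-fold lower than in the vector line (log2 fold change -1.67 ± 0.14, adjusted p = 0.000834). Both wild-type libraries were under 1 FPKM and both vector libraries above 3. The inflammasome genes AIM2 and PYCARD fell by 1.31 and 1.18. TBK1, the kinase below STING1, was at 8.31 and 7.61 FPKM in vector A and B and at 7.6 and 7.02 in wild type A and B and was not called, and its substrate IRF3 fell by 0.41.

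Genes of cholesterol synthesis were lower at every step measured. All 20 enzymes of the list fell, from ACAT2 at the entry to DHCR7 at the end, against 28.6% of all genes, with a median log2 fold change of -0.70. Most of these falls were moderate, and 2 of them, in MSMO1 and FDFT1, passed 2-fold, against 4 without vector A and 1 without vector B. FDFT1, squalene synthase, stood at 67.8 and 78.3 FPKM in vector A and B and at 35.5 and 34.8 in wild type A and B (log2 fold change -1.03 ± 0.076, adjusted p = 0.0006). MSMO1, which removes methyl groups from lanosterol, stood at 18.7 and 22.1 FPKM in vector A and B and at 8.09 and 7.35 in wild type A and B (log2 fold change -1.29 ± 0.091, adjusted p = 0.000541). HMGCS1, MVD and IDI1, enzymes of the mevalonate pathway, fell by 0.88, 0.99 and 0.98. HMGCS1 was not called in the 3-group fit (adjusted p = 0.112).

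The regulators of this pathway were lower as well. INSIG1, which holds SREBP in the endoplasmic reticulum and is itself induced by SREBP, stood at 43.2 and 54.4 FPKM in vector A and B and at 6.02 and 6.1 in wild type A and B (log2 fold change -2.81 ± 0.11, adjusted p = 0.000162). SREBF1 stood at 49.4 and 65.2 FPKM in vector A and B and at 15.8 and 15.6 in wild type A and B (log2 fold change -1.79 ± 0.13, adjusted p = 0.000541) and SREBF2 at 38.1 and 42.7 FPKM in vector A and B and at 19.8 and 19.2 in wild type A and B (log2 fold change -1.01 ± 0.067, adjusted p = 0.000493). Vector B lay above vector A in INSIG1 and in SREBF1, and both lay far above the wild-type libraries. SCAP, the escort of SREBP, was at 16 and 15.5 FPKM in vector A and B and at 17.4 and 17.2 in wild type A and B and was not called. The sterol carrier STARD4 fell by 1.77. In all, 8 of 14 control genes fell and 0 rose. The efflux pumps ABCA1 and ABCG1 were under the filter, with ABCG1 at 1.09 and 1.44 FPKM in the vector libraries and 0.043 and 0.0383 in the wild-type libraries. MYLIP, a ubiquitin ligase induced by liver X receptors, fell by 0.61, and the liver X receptors NR1H2 and NR1H3 were not called.

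Fatty acid genes fell in 11 of 16 and rose in 0. SCD, the desaturase that makes oleate, stood at 205 and 254 FPKM in vector A and B and at 30.2 and 29.3 in wild type A and B (log2 fold change -2.90 ± 0.1, adjusted p = 0.000143). The wild-type libraries were nearly equal, and the vector libraries, though further apart, were both far higher. SCD5, a related desaturase, fell by 1.00, and FADS1 and ACSL3 by 0.81 and 0.78. FASN, the fatty acid synthase, stood at 104 and 123 FPKM in vector A and B and at 76.3 and 76.9 in wild type A and B, a smaller difference (log2 fold change -0.56 ± 0.085, adjusted p = 0.00465). ELOVL5, which lengthens fatty acids, fell by 0.36, and 6 of the 16 fell in the 3-group fit, without ELOVL5 (adjusted p = 0.098).

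**Figure D4:**
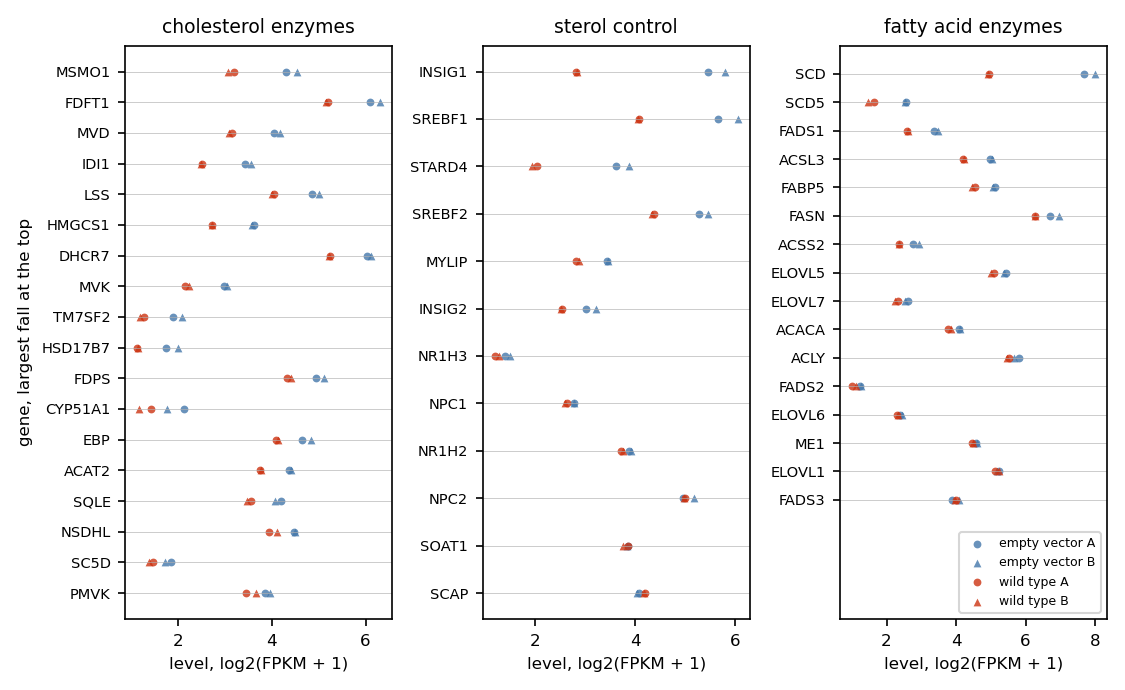
Level of tested genes of 3 lipid lists in each library as log2(FPKM + 1), with the largest fall at the top of each panel. Blue symbols are vector libraries and red symbols wild-type libraries, with circles for A and triangles for B. In all 18 cholesterol enzymes shown both red symbols lie below both blue ones, and INSIG1 and SCD show the widest gaps.

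Promoter sequence is shown for SREBF2, the regulator that fell together with the enzymes, because it was the only gene of these sterol lists with a match to the element that SREBP proteins bind. The RefSeq table on GRCh38.p14 had promoters for 15 of the cholesterol enzymes and 15 of the control genes. The sterol regulatory element was searched as TCACNCCAC on both strands in the 250 bases before each annotated start, where it occurred in 310 of 35116 promoters (0.883%). It was found in 0 of the 15 enzyme promoters and in 1 of the 15 control gene promoters, that of SREBF2. The sequence lies on the plus strand at chr22:41832855-41833104, with the match in capitals, ending 125 bases before the start.
SREBF2: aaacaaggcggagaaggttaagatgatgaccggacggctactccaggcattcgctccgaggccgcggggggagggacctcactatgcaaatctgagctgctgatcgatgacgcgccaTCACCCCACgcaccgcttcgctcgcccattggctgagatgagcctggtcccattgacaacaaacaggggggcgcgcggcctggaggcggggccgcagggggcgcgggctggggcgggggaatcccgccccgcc

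Stress response genes of the endoplasmic reticulum and of amino acid supply were also lower. Of 20 tested genes of the ATF4 amino acid response 15 fell and 2 rose, with a median of -0.51. DDIT4, an inhibitor of mTORC1, stood at 106 and 148 FPKM in vector A and B and at 16.8 and 16.7 in wild type A and B (log2 fold change -2.83 ± 0.15, adjusted p = 0.000315). CHAC1, which degrades glutathione, fell by 1.44, and PHGDH and SLC7A11, for serine synthesis and cystine uptake, by 0.79 and 0.97. ATF4 itself fell by 0.51, and ATF3, which also belongs to the immediate early genes, rose by 1.11. Of 22 chaperone and folding genes 15 fell and 2 rose, with 8 falls without wild type A or B. XBP1 stood at 36.8 and 35.6 FPKM in vector A and B and at 15.2 and 15.8 in wild type A and B (log2 fold change -1.17 ± 0.049, adjusted p = 0.000176), and SDF2L1 and MANF fell by 1.12 and 1.09. CALR, a lectin chaperone and the abundant one among these, stood at 467 and 492 FPKM in vector A and B and at 264 and 272 in wild type A and B (log2 fold change -0.84 ± 0.056, adjusted p = 0.000504). Cytosolic aminoacyl-tRNA synthetases had a median of -0.04, with 3 higher and 6 lower of 20 (0 and 5 without wild type B).

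Hypoxia and glycolysis genes fell in 15 of 25 and rose in 2, against 28.6% and 17.8% of all genes, with 8 falls without wild type A and 9 without B. In the 3-group fit 1 fell, and HIF1A (adjusted p = 0.141), CA9 (adjusted p = 0.3) and NDRG1 (adjusted p = 0.309) were not called. HIF1A, the oxygen-sensitive transcription factor, stood at 117 and 117 FPKM in vector A and B and at 75.1 and 72 in wild type A and B (log2 fold change -0.66 ± 0.047, adjusted p = 0.000541), and its targets CA9 and NDRG1 fell by 1.38 and 1.14. Of 19 p53 targets 9 fell and 3 rose, with 6 falls without wild type B and 5 in the 3-group fit. The stress cytokine GDF15 stood at 7.02 and 12 FPKM in vector A and B and at 1.43 and 1.35 in wild type A and B (log2 fold change -2.10 ± 0.22, adjusted p = 0.00146), and the cell cycle inhibitor CDKN1A fell by 0.86. NRF2 targets fell in 8 of 18 and rose in 3, with 4 falls without wild type A, 2 without B and 2 in the 3-group fit, and the rises lie near the 17.8% of all genes. NQO1, the usual marker of that pathway, stood at 29.2 and 29 FPKM in vector A and B and at 28.3 and 30.5 in wild type A and B and was not called. Heat shock genes rose in 4 and fell in 2 of 12, with 0 rises called without wild type A or B or in the 3-group fit, and the falls lie under the 28.6% of all genes. HSPE1, a mitochondrial chaperonin, fell by 1.09.

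Immediate early genes, which growth factors and stress switch on within minutes, had the highest median log2 fold change of the lists, 0.68. The share called higher was not the largest, with 13 of 22 matrix glycoprotein genes also called higher. Of 19 tested 10 were called higher and 3 lower, and 8 rose at least 2-fold, against 0.907% of all genes. EGR1, a zinc finger transcription factor, stood at 15.7 and 29.2 FPKM in vector A and B and at 163 and 157 in wild type A and B (log2 fold change 2.84 ± 0.26, adjusted p = 0.00102). FOS stood at 8.16 and 15.2 FPKM in vector A and B and at 87.3 and 81.4 in wild type A and B (log2 fold change 2.81 ± 0.25, adjusted p = 0.000959) and FOSB at 0.917 and 2.1 FPKM in vector A and B and at 17.3 and 15.4 in wild type A and B (log2 fold change 2.83 ± 0.22, adjusted p = 0.000691). In all 3 genes vector B lay well above vector A, and both wild-type libraries were several-fold above vector B. JUN, the partner of FOS in AP-1, stood at 31.8 and 31.2 FPKM in vector A and B and at 68 and 66.5 in wild type A and B with close replicates in both lines (log2 fold change 1.07 ± 0.045, adjusted p = 0.000175). FOSL1 rose by 1.08, the mRNA decay factor ZFP36 by 1.34 and KLF2 by 1.56. JUND, IER3 and SRF fell, by 0.45, 0.72 and 0.21, and JUNB, FOSL2 and MCL1 were not called. The calls of JUND and SRF were lost without wild type A (adjusted p = 0.06 and 0.0856) or B (adjusted p = 0.102 and 0.211), while 10 members rose with vector A, wild type A or wild type B left out, and 11 with vector B left out. In the 3-group fit FOSL1 (adjusted p = 0.0737) and ZFP36 (adjusted p = 0.153) were also not called.

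The EGR1 promoter is shown because EGR1 had the largest rise of this list and its promoter holds CArG boxes, the sites of serum response factor. The table had promoters for 19 of the 26 symbols of the list, and the same 250 bases were searched. A CArG box occurred in 407 of 35116 promoters (1.16%) and in 3 of these 19, those of EGR1, EGR2 and SRF. The AP-1 motif TGANTCA, searched on both strands, occurred in 2308 of all promoters (6.57%) and in 0 of the 19. The EGR1 sequence lies on the plus strand at chr5:138465229-138465478. Its 2 CArG boxes are in capitals, do not overlap, and end 96 and 74 bases before the start.
EGR1: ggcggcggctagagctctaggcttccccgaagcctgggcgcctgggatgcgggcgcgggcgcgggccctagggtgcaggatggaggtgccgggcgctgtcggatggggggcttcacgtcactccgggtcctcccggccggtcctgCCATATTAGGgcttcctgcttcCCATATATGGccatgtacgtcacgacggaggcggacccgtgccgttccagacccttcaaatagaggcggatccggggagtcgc

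Genes that ERK signalling induces as its own brakes rose in 8 of 14 and fell in 1, against 17.8% and 28.6% of all genes, with 4 rises without wild type A or B and 2 in the 3-group fit. DUSP5, a nuclear ERK phosphatase, stood at 17.2 and 17.6 FPKM in vector A and B and at 39 and 38.4 in wild type A and B (log2 fold change 1.11 ± 0.046, adjusted p = 0.000172). DUSP6, its cytosolic relative, stood at 1.92 and 1.68 FPKM in vector A and B and at 4.5 and 4.54 in wild type A and B (log2 fold change 0.98 ± 0.078, adjusted p = 0.000719), and SPRY4 and the transcription factor ETV4 rose by 0.95 and 0.70. PHLDA1 fell by 0.47. The receptor EGFR was at 77 and 63.5 FPKM in vector A and B and at 71.3 and 76.3 in wild type A and B and was not called, while its ligand EREG rose by 1.01. SPRY4 (adjusted p = 0.0538), ETV4 (adjusted p = 0.0776), PHLDA1 (adjusted p = 0.0547) and EREG (adjusted p = 0.0959) lost their calls in the 3-group fit.

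Targets of YAP and TAZ, the effectors of the Hippo pathway, rose in 10 of 16 and fell in 2. CCN2, a matricellular protein, stood at 15.3 and 21.9 FPKM in vector A and B and at 80.5 and 77.1 in wild type A and B (log2 fold change 2.04 ± 0.15, adjusted p = 0.000637), and CCN1 at 372 and 377 FPKM in vector A and B and at 632 and 635 in wild type A and B (log2 fold change 0.76 ± 0.053, adjusted p = 0.000541). The other rises were smaller, with AXL at 0.74 ± 0.095 and NT5E at 0.84 ± 0.08. ANKRD1, commonly used as a readout of this pathway, fell by 0.35, a call lost without wild type B (adjusted p = 0.0608). The list had 5 rises and 1 fall without wild type A, and 8 and 0 without B. In the 3-group fit 2 rose, and AXL (adjusted p = 0.315), NT5E (adjusted p = 0.0725) and ANKRD1 (adjusted p = 0.783) were not called.

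Genes of the extracellular matrix changed in both directions. Of 22 matrix glycoprotein genes, a list chosen after values were seen, 13 rose and 5 fell, the falls under the 28.6% of all genes. Rises of at least 2-fold numbered 8 and such falls 3, against 0.907% and 2.7% of all genes. In the 3-group fit 9 rose and 3 fell. SULF2, an extracellular sulfatase that trims heparan sulfate, stood at 1.36 and 1.27 FPKM in vector A and B and at 9.64 and 10.4 in wild type A and B (log2 fold change 2.25 ± 0.072, adjusted p = 0.000111). ITGBL1, an integrin-like secreted protein, stood at 0.362 and 0.4 FPKM in vector A and B and at 5.44 and 6.21 in wild type A and B (log2 fold change 2.30 ± 0.09, adjusted p = 0.000165), and the guidance cue NTN1 at 1.4 and 1.71 FPKM in vector A and B and at 9.22 and 9.19 in wild type A and B (log2 fold change 2.0 ± 0.083, adjusted p = 0.000172). Levels of all 3 were under 3 FPKM in the vector line and above 5 in the wild-type line. The microfibril genes LTBP2 and FBN2 rose by 1.84 and 1.81. TNC, or tenascin C, stood at 49.7 and 41.5 FPKM in vector A and B and at 134 and 144 in wild type A and B (log2 fold change 1.59 ± 0.093, adjusted p = 0.000387), and its neighbours on chromosome 9 had a median of 0.37. COL6A1 and COL6A2, chains of collagen VI that adjoin on chromosome 21, fell by 1.33 and 1.52.

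Of 21 collagens and collagen modifying enzymes 11 rose, above the 17.8% of all genes, and 7 fell, near the 28.6%. In the 3-group fit 3 of these 21 rose and 3 fell. Their median of 0.23 was -0.02 without chromosome 9 genes, 2 of which, COL5A1 and COL27A1, were among the rises (COL5A1 with an adjusted p of 0.179 in the 3-group fit). COL12A1, a fibril-associated collagen, stood at 16.1 and 12.6 FPKM in vector A and B and at 33.8 and 37.8 in wild type A and B (log2 fold change 1.27 ± 0.12, adjusted p = 0.00104), with neighbours on chromosome 6 at a median of 0.33. FKBP10, a folding enzyme for collagen, stood at 8.22 and 7.84 FPKM in vector A and B and at 0.277 and 0.351 in wild type A and B and was nearly lost (log2 fold change -2.78 ± 0.078, adjusted p = 7.3e-05). LAMA3, a chain of the laminin of hemidesmosomes, rose by 1.21 and the cytolinker PLEC by 1.15, while LAMB3 and ITGA6 were not called. Of the 9 laminin and hemidesmosome genes 4 rose and 2 fell, the falls under the 28.6% of all genes. In the 3-group fit 0 of the 9 were called, and LAMA3 had an adjusted p of 0.0547 and PLEC of 0.0799. Among proteases, the membrane-bound MMP14 stood at 71.9 and 80.0 FPKM in vector A and B and at 31.2 and 32 in wild type A and B (log2 fold change -1.24 ± 0.064, adjusted p = 0.000281) and the inhibitor TIMP3 at 0.783 and 0.516 FPKM in vector A and B and at 4.12 and 3.68 in wild type A and B (log2 fold change 1.57 ± 0.11, adjusted p = 0.000541). The plasminogen activator PLAT fell by 1.03 (adjusted p = 0.163 in the 3-group fit).

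Secreted factors of the TGF-beta family were split, 7 higher and 8 lower of 17. INHBB, a subunit of activin B, stood at 0.723 and 0.65 FPKM in vector A and B and at 14.6 and 14.4 in wild type A and B, 21.1-fold higher (log2 fold change 3.20 ± 0.067, adjusted p = 2.15e-05). INHBA, the subunit of activin A, rose by 0.73, while FST, an activin antagonist, fell by 0.53 and FSTL3, another, rose by 0.77. The BMP target ID1 fell by 0.82. In the Notch pathway 6 rose and 5 fell of 13, with 3 falls without wild type A or B. LFNG, a glycosyltransferase that modifies Notch, stood at 7.58 and 7.6 FPKM in vector A and B and at 21.5 and 22.2 in wild type A and B (log2 fold change 1.41 ± 0.05, adjusted p = 0.000148). NOTCH1 and its target NRARP rose by 0.50 and 0.62 among chromosome 9 neighbours with a median of 0.52, and NOTCH3 fell by 0.74. The 3-group fit called 3 higher and 3 lower of the TGF-beta family list and 3 and 1 of the Notch list, without ID1 (adjusted p = 0.591), INHBA (adjusted p = 0.294) and NOTCH3 (adjusted p = 0.156).

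Some of the largest changes fell outside epithelial or matrix functions. L1CAM, an adhesion molecule of neurons, stood at 0.587 and 0.546 FPKM in vector A and B and at 14.8 and 14.4 in wild type A and B, 25.8-fold higher (log2 fold change 3.32 ± 0.066, adjusted p = 2.08e-05). STMN3, a microtubule-binding stathmin, stood at 5.96 and 5.8 FPKM in vector A and B and at 39.6 and 39.4 in wild type A and B (log2 fold change 2.56 ± 0.048, adjusted p = 2.08e-05), and BASP1, a membrane protein of growth cones, went down to 42.0 and 43.9 FPKM from 117 and 122 (log2 fold change -1.46 ± 0.05, adjusted p = 0.000134). TNNI2, a troponin of fast muscle, stood at 1.52 and 2.04 FPKM in vector A and B and at 12.7 and 12.1 in wild type A and B (log2 fold change 2.27 ± 0.1, adjusted p = 0.000218). Most neuronal genes of the list were not expressed: 11 of 16 were under the filter or not matched. MUC6, a gastric mucin, rose from under 0.1 FPKM in both vector libraries to 1.75 and 2.38 in the wild-type libraries (log2 fold change 1.56 ± 0.13, adjusted p = 0.000748).

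HORMAD2, a gene of meiotic chromosomes, was the only gene that passed 5 FPKM in both libraries of 1 line while under 0.1 in both of the other. It stood at 12.3 and 12.6 FPKM in the vector libraries, on 763 and 670 reads, whereas both wild-type libraries list it at 0 (log2 fold change -3.75 ± 0.071, adjusted p = 2.08e-05). With 3 reads per library as the floor, or 0.0529 FPKM, it was at least 235-fold lower.

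Ribosomal protein genes and mitochondrial genes give a view of the housekeeping transcriptome. Of 60 cytosolic ribosomal protein genes 6 rose and 11 fell, both under the 17.8% and 28.6% of all genes. Their median of -0.03 turned to 0.08 with the length trend removed. Without vector A 5 rose and 25 fell, without vector B 14 and 11, and without wild type A 2 and 3. With quantile normalization 16 rose and 6 fell, against 25.3% and 22.2% of all genes. With limma-voom on the recovered reads 7 rose and 19 fell, against 19.9% and 30.1%. RPL7A, on chromosome 9, was 0.80 ± 0.065 higher, and RPS15A 1.30 ± 0.055 lower. Of 13 mitochondrially encoded mRNAs limma called 0, with 0 at an unadjusted p under 0.05, and limma-voom on the recovered reads called 1. Vector A lay far below vector B in these genes, and 1 rose and 8 fell without vector A, and 11 rose and 0 fell without vector B. MT-CO1, for example, stood at 1470 and 3067 FPKM in vector A and B and at 2651 and 2486 in wild type A and B, so the vector libraries bracketed both wild-type libraries. MT-TN, the mitochondrial tRNA for asparagine, stood at 44.2 and 78.3 FPKM in vector A and B and at 315 and 332 in wild type A and B (log2 fold change 2.44 ± 0.25, adjusted p = 0.00134). It is 73 bases long. SNORD99, a small nucleolar RNA of 74 bases, had 1 and 1 reads in the vector libraries and 12 and 11 in the wild-type libraries (log2 fold change 2.32 ± 0.076, adjusted p = 0.000111).

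The fold changes were not spread evenly along the genome. The median log2 fold change was 0.20 on chromosome 9 and between -0.13 and -0.01 on each other autosome and on X. In blocks of 44 consecutive tested genes along chromosome 9, the first 5 blocks had medians of -0.05 to -0.26. The 6 blocks from TRMO to the end of the chromosome had medians of 0.41 to 0.55, with 30 to 39 genes called higher in each and 0 to 4 called lower. The highest window of 31 genes, from FUBP3 to VAV2 (9:130578965 to 133992604), had a median of 0.60, with 26 called higher and 0 lower. The other high windows ran from PTGES2 to PTPA (9:128120693 to 129148946) and from MAMDC4 to ZMYND19 (9:136850943 to 137590490), both at 0.58. NOTCH1, RPL7A, TNC and COL5A1 above are among the genes of the 6 blocks from TRMO to the end of the chromosome.

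The lowest windows lay on chromosomes 6 and 1. From DUSP22 to TXNDC5, at the start of chromosome 6 (6:291630 to 7910814), the median was -0.76, with 22 of 31 genes called lower and 5 higher. From TDRKH to RAB13 (1:151770107 to 153986358), which holds the S100 genes, it was -0.45. From SNHG32 to HLA-DPB1 (6:31834608 to 33087201), which holds class II genes, it was -0.43. Positions are from GENCODE 29 on GRCh38. In each of these lowest windows genes described above are themselves part of the median, the clade B serpins among them at the start of chromosome 6. Chromosome 9 held 484 of the 11240 tested genes. It held 17 of the 102 genes called at least 2-fold higher and 12 of the 303 called at least 2-fold lower. By these counts most of the larger changes lay elsewhere. Leaving its genes out of the fit gave 376 genes called with at least 2-fold, against 405, which follows from dropping them and tests nothing further.

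**Figure D5:**
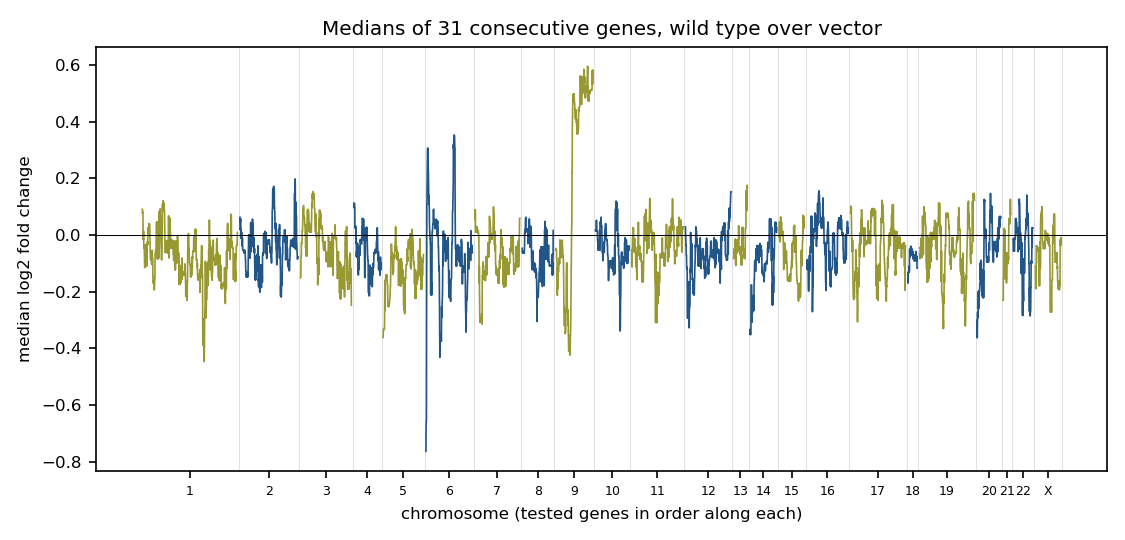
Median log2 fold change of wild type over vector in windows of 31 consecutive tested genes, in order along each chromosome from 1 to 22 and X. Most windows lie near 0, the far part of chromosome 9 lies between about 0.4 and 0.6, and the start of chromosome 6 reaches -0.76.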

How the data were processed

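Per the labels' protocols, RNA was extracted with QIAGEN reagents and libraries were prepared with Illumina protocols. The authors deposited FPKM values per gene ID. The submitters' processing notes list CASAVA, mm8 and mm9 (mouse builds) with no role, although the samples are human. Aligner, counting method, strand and annotation are not given in those notes or the labels. Of 30178 IDs, 29993 matched the table of gene names, and 30059 were in GENCODE 29 (GRCh38), which gave exon lengths and positions. With those lengths or, for some genes, a length found from the values, 99.51% of the genes came out as whole reads within a tolerance of 0.001, and the library totals come from that step. Limma-voom on those reads called 5616 genes.

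Genes averaging 1 FPKM or more were tested on log2(FPKM + 1), a pseudocount of 1, by limma 3.58.1 in R 4.3.3 with a variance trend and Benjamini-Hochberg adjustment, on 2 residual degrees of freedom. Such fold changes understate the change of low genes, and ± marks the standard error. Genes open to naming were MB21D2, the 15 called genes that rose most and the 15 that fell most, genes under 0.1 FPKM in one line and at least 5 in the other, list members, and the 3 highest and 3 lowest windows. Members, lists and comparisons were chosen with earlier results of these data known. Some members are counted in their lists but not reported here by name. Promoters come from RefSeq on GRCh38.p14.

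Alternatives were other pseudocounts, filters and scalings, no length or variance trend, limma-voom, a replicate block, all 3 groups in 1 fit and each library left out. The fit without chromosome 9 was chosen after seeing the data.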

Additional observations from a re-analysis of the deposited data

Results flagged for a closer look

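MB21D2 was also high in the libraries outside this comparison, at 32.8 FPKM in one Q311E library and 21.2 FPKM in the other, both above the higher vector library at 8.31 FPKM. These levels were below both wild-type libraries, and the difference between the wild-type and Q311E lines was not tested here.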

How the results depend on the processing

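MB21D2 kept its direction and its call under every alternative run. The number of genes called ranged from 2611 to 5761 when each library was left out in turn, was 1442 with the Q311E libraries in the same fit, and was 3510 to 5616 under the other scalings, filters, pseudocounts and models. Genes called with at least 2-fold, 405 as deposited, numbered 301 with the Q311E libraries in the same fit. They numbered 707 and 116 with pseudocounts of 0.1 and 5, and 208 with a mean FPKM of at least 5 as the filter. The count was 609 after TPM scaling and 735 with limma-voom. Pseudocount and filter act on this count by construction, and the cause of the other shifts was not tested. The deviations of same-lettered libraries had a correlation of 0.00169 across genes, so over the tested genes the A-to-B differences of the lines did not track each other. A correlation leaves out a shift that is equal in all genes, and it can hide a shift shared by few genes. Whether the lines shared such a shift was not tested. The correlation also cannot show whether A and B pair the samples, which the labels do not say. A replicate block gave 5063 genes called and 409 with at least 2-fold, and with 2 pairs it changed no call of the 160 called genes named in the report. Of these 160, all kept their direction in the 16 alternatives run on single genes, 48 lost the call with the Q311E libraries in the fit, and 3 and 4 without wild type A or B. Some genes that were not called changed sign: IL18 to 0.01, 0.03, 0.05 and 0.09 with TPM, median and quantile scaling and the length trend removed. With each library left out in turn, CD14 ran from -0.26 to 0.32, MT-CO1 from -0.26 to 0.8, EGFR from -0.06 to 0.21 and NQO1 from -0.04 to 0.07. With 2 libraries per line, the spread rests on 1 difference within each line.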
